A study of Homo sapiens with 30 samples.

Results

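The transcripts of 10 genes of the BCL2 family, BCL2, BCL2L1, MCL1, BCL2A1, BCL2L11, BAX, BAK1, BID, BMF and PMAIP1, were examined in cells treated with Omomyc, a dominant negative form of the dimerization domain of Myc. The genes were taken by name from a table of 57992 genes that gives RPKM (reads scaled to gene length and library depth). Earlier results of these data were known when the genes were chosen. Each of the 10 was found once by its Ensembl identifier. The 30 RNA-Seq libraries came from 2 human tumor lines and form 10 groups of 3 replicates. HCT116, a colon carcinoma line labelled "MYC stabilized", was left untreated or received Omomyc at 2 or 10 μM for 6 or 24 h. Ramos, a Burkitt's lymphoma line of B cells labelled "MYC translocation", was left untreated or received 0.5 or 2.5 μM for 6 or 24 h. The study's methods describe a protein delivery reagent, ProteoJuice, for HCT116 cells, do not say whether untreated cells received it, and describe no RNA-Seq of Ramos cells. The untreated groups carry no time point, so time in culture and delivery reagent cannot be told apart from Omomyc, and each line is a single cell line, with nothing in the labels to say that its replicates were separate cultures. The p values therefore measure the spread between these libraries, which may be technical.

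BCL2 family proteins decide whether the outer membrane of the mitochondrion is made permeable, the step that releases cytochrome c and starts the caspases of intrinsic apoptosis. Pro-survival members (here BCL2, BCL2L1, MCL1 and BCL2A1) hold back the effectors BAX and BAK1, which form the pores, and BH3-only members (here BCL2L11, BID, BMF and PMAIP1) bind the pro-survival proteins or activate the effectors. Myc is known both for driving proliferation and for sensitizing cells to apoptosis, and B cell lymphomas and carcinomas are known to lean on different pro-survival members. RNA levels do not measure the proteins, of which MCL1 and PMAIP1 are known to be short-lived.

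The genes lie, on GRCh38 in GENCODE release 29, at chr18:63123346-63320128 (BCL2), chr20:31664452-31723989 (BCL2L1), chr1:150574551-150579738 (MCL1), chr15:79960889-79971446 (BCL2A1), chr2:111119378-111168447 (BCL2L11), chr19:48954815-48961798 (BAX), chr6:33572547-33580293 (BAK1), chr22:17734138-17774770 (BID), chr15:40087890-40108892 (BMF) and chr18:59899948-59904306 (PMAIP1). BCL2L11, BAX and PMAIP1 are on the plus strand and the other genes on the minus strand. A value sums the splice forms of a gene, some of which in BCL2L1, MCL1 and BCL2L11 are known to encode proteins of opposed or unequal action.

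Myc-Max dimers bind the E box CACGTG and, less tightly, CACGCG, so both motifs were searched on both strands in the RefSeq promoter windows (GRCh38.p14, 250 bases before to 50 after each transcript start). Of the 10 genes, 9 had a window, with 15 windows in all, and MCL1 had none. CACGTG was found in windows of 2 genes, BAX and BID, and CACGCG in 1, BCL2L11. The windows that hold a motif are shown here, with the motif in capitals, and they are at chr19:48954625-48954924 (plus strand) for BAX, chr2:111120664-111120963 (plus strand) for BCL2L11 and chr22:17773993-17774292 (minus strand) for BID.
BAX: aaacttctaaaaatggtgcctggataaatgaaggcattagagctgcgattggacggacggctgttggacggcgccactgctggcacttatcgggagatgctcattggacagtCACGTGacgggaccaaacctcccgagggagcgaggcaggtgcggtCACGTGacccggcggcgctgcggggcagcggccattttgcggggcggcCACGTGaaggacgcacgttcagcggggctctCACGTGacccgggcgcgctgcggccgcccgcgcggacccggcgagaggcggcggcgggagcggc
BCL2L11: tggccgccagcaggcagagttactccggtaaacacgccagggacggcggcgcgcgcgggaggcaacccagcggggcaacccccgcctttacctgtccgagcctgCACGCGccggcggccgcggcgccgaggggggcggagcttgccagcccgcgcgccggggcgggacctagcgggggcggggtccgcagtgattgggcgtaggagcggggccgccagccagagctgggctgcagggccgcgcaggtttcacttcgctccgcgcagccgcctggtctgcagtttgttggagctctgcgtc
BID: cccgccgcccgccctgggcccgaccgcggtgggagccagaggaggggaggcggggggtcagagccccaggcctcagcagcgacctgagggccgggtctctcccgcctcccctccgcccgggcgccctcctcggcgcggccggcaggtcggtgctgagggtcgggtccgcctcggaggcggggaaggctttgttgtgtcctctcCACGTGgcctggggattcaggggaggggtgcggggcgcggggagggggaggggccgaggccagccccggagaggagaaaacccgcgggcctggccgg
The BAX window held 4 copies of CACGTG, which began at positions -138, -93, -45 and -14 from the start, and 5 of 35116 windows (0.0142%) in the table held 4 or more. CACGTG was in 7.26% of windows and CACGCG, in either orientation, in 11.4%. Counted by gene, as for the members, 8.77% and 13.5% of 27305 genes had a window with CACGTG and CACGCG. BID had 5 windows, 2 of which overlapped each other and held the same copy, at position -106 or -47 from their starts. The CACGCG of BCL2L11 began at position -146. A motif in a window is a description of the sequence, and binding was not measured in these data.

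Library totals lay between 593633 and 1051041 RPKM, and between 13483 and 15340 genes reached 0.5 RPKM. The number of reads is unknown, so no interval from depth is given. Values of replicates correlated at r = 0.973 to 0.996 on the log2 scale, and 0 of 30 pairs were identical. Replicate 3 of HCT116 cells at 10 μM for 6 h stood apart, with a sum of 1051041 against 791845 and 795720 in its group, and results for this group are given with and without it where they change. Of 8 epithelial markers, 8 were at a mean of at least 0.5 RPKM in HCT116 cells and 0 in Ramos cells, where their sum was between 0.329 and 2.33 RPKM. The 8 B cell markers were at that level in Ramos cells, and 1 of them, CD22 (0.575 to 2.63 RPKM), was in HCT116 cells. The sum of the 8 in HCT116 cells was between 0.755 and 3.12 RPKM. Of markers of other cells, 0 of 3 for T cells, 1 of 5 for fibroblasts (COL1A1) and 1 of 3 for macrophages reached that mean in HCT116 cells, and 0 of each list did in Ramos cells. Mitochondrial transcripts took 0.40 to 0.52% of the summed RPKM in untreated and 0.82 to 3.12% in treated HCT116 cells, against 0.19 to 0.27% in Ramos cells, and their part in the results for the HCT116 groups was not tested.

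Before treatment the pro-survival transcripts had different orders in the lines. In untreated HCT116 cells BCL2L1, which encodes BCL-XL, had 70.0 ± 3.57 RPKM (SD, n = 3) and MCL1 65.3 ± 1.85 RPKM (SD, n = 3), and their libraries overlapped. PMAIP1 (28.7 ± 1.39 RPKM), BAX (28.3 ± 0.119 RPKM) and BID (26.9 ± 0.542 RPKM) followed, PMAIP1 overlapping both of the others. BAK1 (8.51 ± 0.441 RPKM), BCL2L11 (5.29 ± 0.643 RPKM), BCL2 (1.46 ± 0.0609 RPKM) and BMF (0.713 ± 0.108 RPKM) were lower and did not overlap one another. BCL2A1 was close to 0, with 0.0496 RPKM in 1 untreated HCT116 library and a listed value of 0 in the other 2.

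In untreated Ramos cells MCL1 was highest, at 78.8 ± 4.43 RPKM (SD, n = 3). BCL2A1, a pro-survival gene known as an NF-κB target in B cells, had 45.5 ± 6.29 RPKM and BAX 44.0 ± 2.79 RPKM, and their libraries overlapped. PMAIP1 (27.2 ± 1.31 RPKM), BCL2L11 (24.3 ± 2.29 RPKM) and BCL2L1 (22.1 ± 1.37 RPKM) each overlapped their neighbor in this order, as did BAK1 (19.7 ± 0.662 RPKM) and BID (18.2 ± 1.65 RPKM). BMF stood at 3.10 ± 0.0193 RPKM. BCL2 was at 0.140 ± 0.0295 RPKM, so in these Ramos libraries the founding member of the family was barely detected.

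Of the 10 genes, 9 were past the threshold between the untreated lines (3 higher in HCT116 cells and 6 lower, limma on log2(RPKM + 0.5), Benjamini-Hochberg adjusted p under 0.05), where 84.6% of 15647 genes tested were (45.7% higher and 39.0% lower), so the count is near the background. BCL2L1 was higher in HCT116 cells by 1.64 on the log2 scale (adjusted p = 2.45e-07), BCL2 by 1.61 and BID by 0.56. The pseudocount of 0.5 RPKM compresses the difference of low genes, and the mean RPKM of BCL2 was 10.4 times as high in HCT116 as in Ramos cells, a log2 ratio of 3.38 without the pseudocount. BCL2A1 was lower by 6.47 on the scale with the pseudocount, BCL2L11 by 2.10, BMF by 1.57 (a log2 ratio of -2.12 without it), BAK1 by 1.16, BAX by 0.62 and MCL1 by 0.27. PMAIP1 had a log2 difference of 0.08 (95% interval -0.06 to 0.21, adjusted p = 0.246). When library totals were set equal, the median log2 difference over all genes shifted from 0.09 to 0.65, MCL1 turned to 0.31 (adjusted p = 0.0126), PMAIP1 was past the threshold at 0.65, and BAX, at -0.06 (adjusted p = 0.545), was not. A lower level in every cell and a smaller share of cells that hold the transcript cannot be told apart in bulk RNA, here or after treatment.

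**Figure D1:**
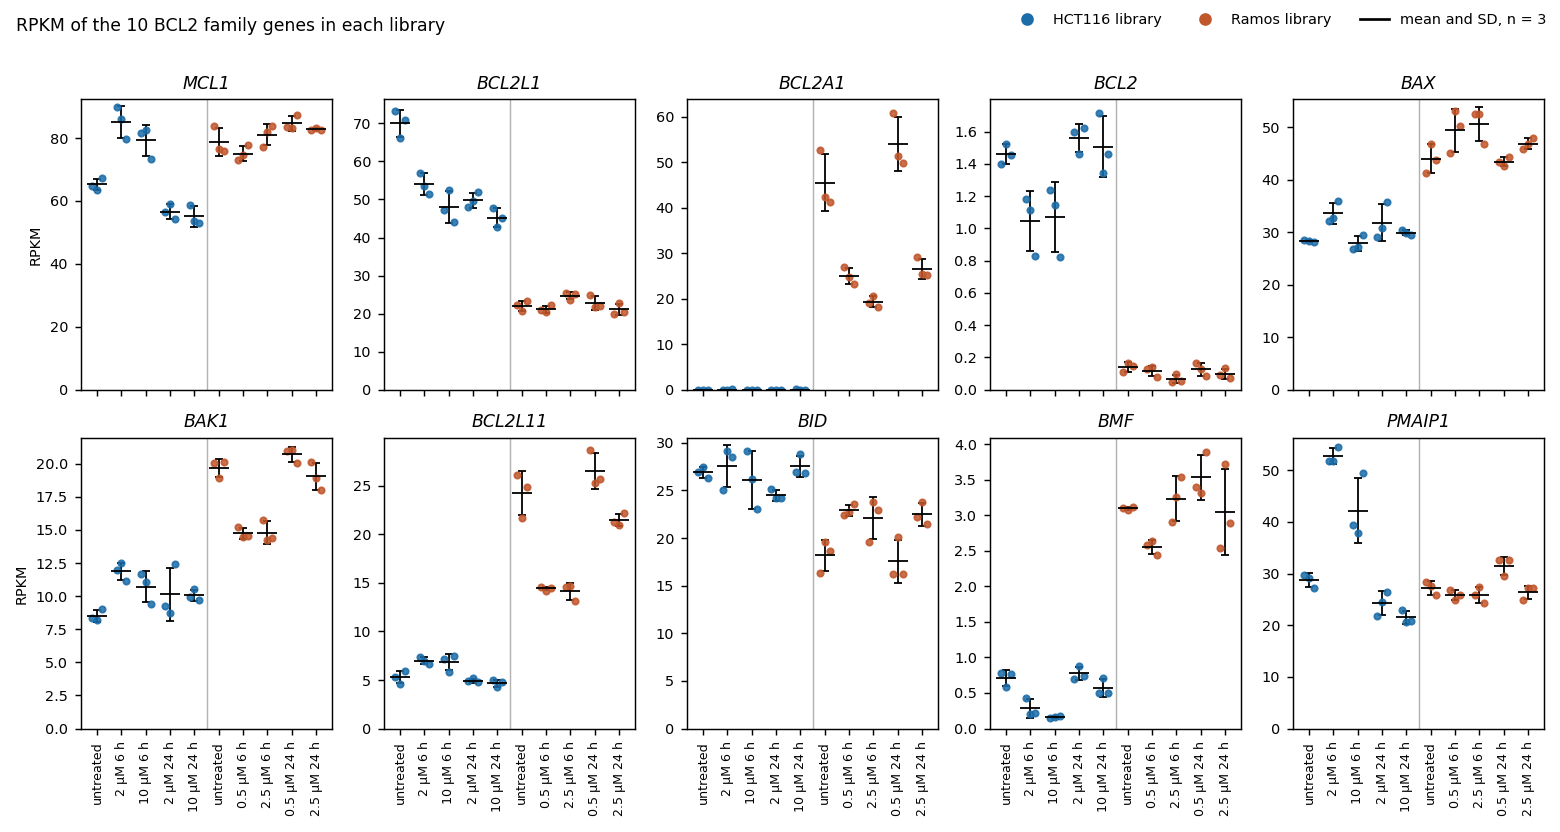
RPKM (vertical axis, linear from 0, a scale of its own for each gene) of the 10 genes in each of the 30 libraries, with HCT116 groups in blue to the left of the line and Ramos groups in orange to the right. Each point is a library and each bar the mean and SD of 3 replicates. PMAIP1 rises to over 50 RPKM only in HCT116 cells at 2 μM for 6 h, and BCL2A1 in Ramos cells falls from 41.3 to 52.7 RPKM in untreated libraries to 18.2 to 20.7 RPKM at 2.5 μM for 6 h.

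Omomyc was then compared with untreated cells of the same line. A gene was tested where its mean over the 6 libraries was at least 0.5 RPKM, which left out BCL2A1 in HCT116 cells, BCL2 in Ramos cells and BMF in HCT116 cells at 6 h. The 4 comparisons of a line share their untreated libraries. In HCT116 cells at 6 h, 6 of 8 genes tested were past the threshold at 2 μM (5 higher and 1 lower), beside 47.3% of all genes tested (15.5% higher and 31.8% lower). At 10 μM for 6 h 2 of 8 were past it (1 higher and 1 lower), beside 30.0% (8.84% higher and 21.2% lower). At 24 h in HCT116 cells 3 of 9 were past it at 2 μM (3 lower), beside 27.3% (16.6% higher and 10.8% lower), and 4 of 9 at 10 μM (1 higher and 3 lower), beside 35.2% (19.5% higher and 15.7% lower). In Ramos cells 4 of 9 (1 higher and 3 lower) were past it at 6 h with 0.5 μM, beside 23.6% (13.8% higher and 9.73% lower), and 4 of 9 with 2.5 μM (1 higher and 3 lower), beside 27.9% (17.3% higher and 10.7% lower). At 24 h in Ramos cells the counts were 0 of 9 at 0.5 μM (limma, with 2 at an unadjusted p under 0.05), beside 0.0146%, and 1 of 9 at 2.5 μM (1 lower), beside 4.61% (3.30% higher and 1.31% lower). Treated and untreated libraries did not overlap, in either direction, for 57.8%, 50.2%, 44.9% and 49.3% of all genes tested in HCT116 cells (2 and 10 μM for 6 h, then for 24 h). The shares were 41.4%, 44.7%, 11.5% and 27.4% in Ramos cells (0.5 and 2.5 μM for 6 h, then for 24 h), and the cases of no overlap described next are read against them. The scaling turned this count round at 6 h in HCT116 cells. When library totals were set equal, 1 member was higher (PMAIP1) and 4 were lower (BCL2, BCL2L1, BID and BMF) of 9 tested at 2 μM, and 0 were higher and 4 lower (BCL2, BCL2L1, BAX and BMF) at 10 μM. Of all genes tested, 63.1% and 48.6% were called under these totals at 2 and 10 μM, so the number of members called was near the background. Of all genes called at 2 μM, 32.7% were higher as deposited, 53.8% with median-ratio scaling and 6.76% with equal library totals, and at 10 μM the shares were 29.4%, 47.6% and 4.28%. With median-ratio scaling the members called were the same 6 at 2 μM, and 3 were higher (MCL1, BAK1 and PMAIP1) and 1 lower (BCL2L1) at 10 μM. With that scaling 45.2% and 30.4% of all genes tested were called at 2 and 10 μM. At 24 h in HCT116 cells 60.6% and 55.3% of all genes called were higher as deposited and 23.0% and 20.4% with equal library totals. Under equal totals 4 and 3 members were lower and 0 higher, beside 26% and 33% of all genes tested that were called. In Ramos cells equal library totals moved the share of called genes that were higher from 58.7% to 79.8% and from 61.8% to 85.2% at 6 h and from 71.6% to 97.4% at 2.5 μM for 24 h. The members lower there were BCL2A1, BCL2L11 and BAK1 at 6 h and BCL2A1 at 24 h on both scales. The median log2 fold change of the genes tested was 0.31 in HCT116 cells at 2 μM for 6 h, where that of all genes was -0.12, and between -0.16 and 0.13 in the other 7 comparisons. At 10 μM for 6 h the count depended on single libraries, as did the share of all genes called. Without replicate 3 of the treated cells 4 genes were past the threshold, beside 51.2% of all genes. Without replicate 2 of the untreated cells 1 was past it, beside 13.9%, and without replicate 1 or 3 of the untreated cells 0 were, beside 12.8% and 12.2%.

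**Figure D2:**
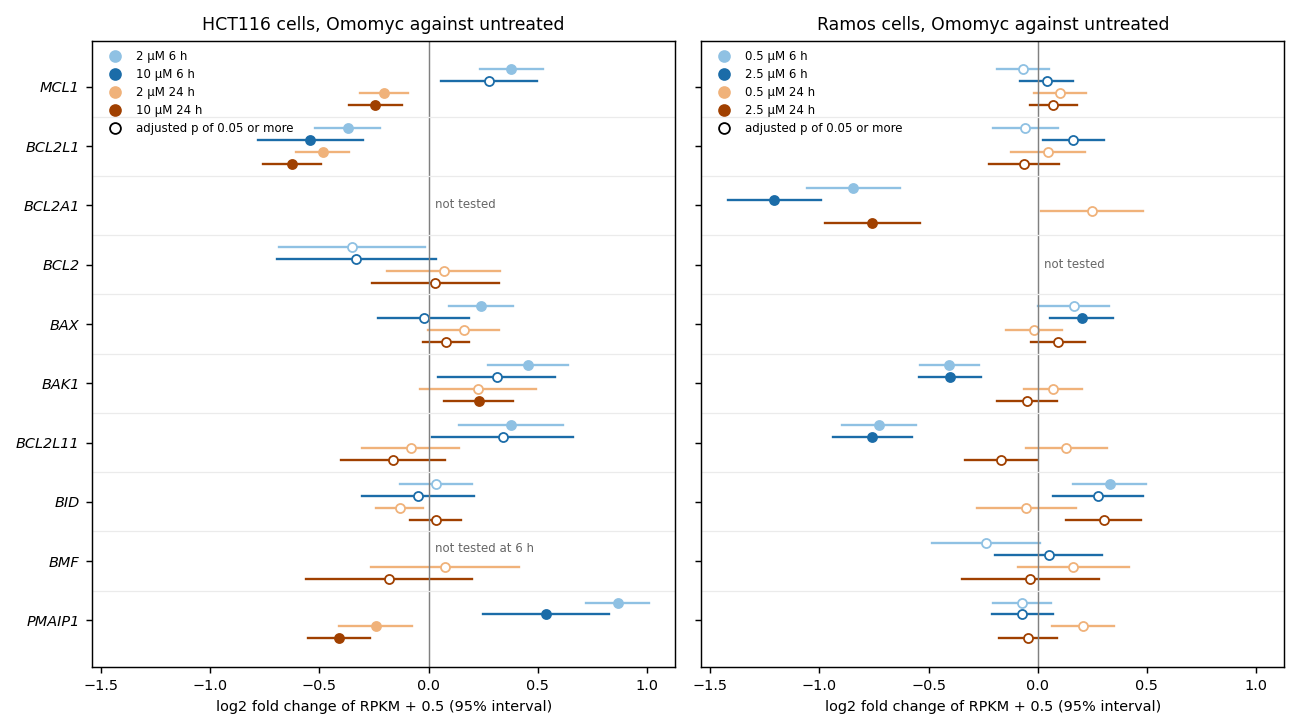
Log2 fold change of RPKM + 0.5 against untreated cells (horizontal axis) for the 10 genes, with HCT116 cells on the left and Ramos cells on the right. Points are limma estimates with their 95% intervals, and filled points have an adjusted p under 0.05. BCL2L1 is lower at each of the 4 conditions in HCT116 cells, PMAIP1 is higher at 6 h and lower at 24 h in HCT116 cells, and BCL2A1, BCL2L11 and BAK1 are lower at 6 h in Ramos cells.

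Among the pro-survival genes, BCL2L1 fell in HCT116 cells under every condition tested. The untreated libraries had 70.8, 66.1 and 73.1 RPKM, and those treated for 6 h had 53.6, 51.4 and 57.0 RPKM at 2 μM and 47.3, 52.5 and 44.2 RPKM at 10 μM. After 24 h the values were 48.1, 49.5 and 51.9 RPKM at 2 μM and 47.7, 42.8 and 45.1 RPKM at 10 μM. Every treated library was thus below every untreated one. The log2 fold changes were -0.37 (adjusted p = 0.00183) and -0.54 (adjusted p = 0.00852) at 6 h and -0.49 (adjusted p = 0.000634) and -0.62 (adjusted p = 8.81e-05) at 24 h, with the lower dose first (limma). The fall at 10 μM for 6 h was no longer past the threshold without replicate 1 (adjusted p = 0.0509) or 3 (adjusted p = 0.0558) of the untreated cells, and the other 3 stayed past it under every alternative run. Neither dose nor time made a difference past the threshold, with 10 minus 2 μM at -0.17 (95% interval -0.44 to 0.10) at 6 h and -0.14 (95% interval -0.27 to -0.01, adjusted p = 0.41) at 24 h. The difference between times at 2 μM was -0.11 (adjusted p = 0.203) and, with median-ratio scaling, -0.31 (adjusted p = 0.00594).
In Ramos cells BCL2L1 ranged from 19.9 to 25.4 RPKM over the 15 libraries, and its log2 fold changes were -0.06, 0.16, 0.05 and -0.06 at 0.5 and 2.5 μM for 6 h and 0.5 and 2.5 μM for 24 h. None of these 4 was past the threshold (adjusted p from 0.0792 to 0.945, limma), but that at 2.5 μM for 6 h was past it without replicate 3 of the untreated cells (0.204, adjusted p = 0.044) or with equal library totals (0.30, adjusted p = 0.0235). At 2.5 μM BCL2L1 was lower at 24 than at 6 h, by 0.23 on the log2 scale (adjusted p = 0.0221). That difference was not past the threshold when any of 4 of the 6 libraries was left out, replicates 1 and 3 of each time.

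MCL1 rose and then fell in HCT116 cells. Its values were 67.3, 63.6 and 64.9 RPKM in untreated libraries, 86.0, 79.6 and 89.9 RPKM at 2 μM for 6 h and 81.7, 82.5 and 73.5 RPKM at 10 μM for 6 h. At 24 h they were 56.4, 59.0 and 54.3 RPKM at 2 μM and 58.8, 53.6 and 52.8 RPKM at 10 μM. The libraries at 6 h were above and those at 24 h below the untreated ones, with no overlap. The log2 fold change was 0.38 at 2 μM for 6 h (adjusted p = 0.0014), 0.28 at 10 μM for 6 h (adjusted p = 0.0613), -0.20 at 2 μM for 24 h (adjusted p = 0.0146) and -0.24 at 10 μM for 24 h (adjusted p = 0.00738, limma). Between 6 and 24 h it fell by 0.58 at 2 μM (adjusted p = 0.000629) and by 0.52 at 10 μM (adjusted p = 0.0299).
The scaling set whether MCL1 was called higher at 6 h. When library totals were set equal, the median log2 fold change over all genes shifted from -0.12 to -0.42 at 2 μM and from -0.11 to -0.56 at 10 μM. MCL1 then stood at 0.04 (adjusted p = 0.754) and -0.21 (adjusted p = 0.397). Both values lie above the shifted median. Without replicate 3 of the cells at 10 μM for 6 h the change of MCL1 there was 0.33 and past the threshold (adjusted p = 0.00158). The fall at 2 μM for 24 h was lost without replicate 1 of the untreated cells (adjusted p = 0.0579) and with the 5 groups fitted jointly. The fall between times at 10 μM was lost without any of 5 of the 6 libraries.
In Ramos cells MCL1 had between 73.0 and 87.4 RPKM in the 15 libraries, and its log2 fold changes against untreated cells, between -0.07 and 0.10, were not past the threshold (adjusted p from 0.39 to 0.849). At 2.5 μM for 24 h it was at 0.28 with equal library totals (adjusted p = 0.0148). At 0.5 μM it was higher at 24 than at 6 h by 0.17 on the log2 scale (adjusted p = 0.0206), which was not past the threshold without replicate 1 or 2 at 6 h or replicate 3 at 24 h.

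BCL2A1 gave the largest changes of the 10 genes in Ramos cells. Its untreated libraries had 52.7, 42.4 and 41.3 RPKM. At 6 h the values were 26.9, 24.8 and 23.3 RPKM with 0.5 μM and 19.1, 20.7 and 18.2 RPKM with 2.5 μM. At 24 h they were 60.7, 51.4 and 49.8 RPKM with 0.5 μM and 29.1, 25.4 and 25.2 RPKM with 2.5 μM. Both groups at 6 h and the group at 2.5 μM for 24 h lay below the untreated libraries without overlap, whereas the group at 0.5 μM for 24 h overlapped them. The log2 fold change was -0.85 at 0.5 μM for 6 h (adjusted p = 0.00048), -1.21 at 2.5 μM for 6 h (adjusted p = 8.29e-05), 0.25 at 0.5 μM for 24 h (adjusted p = 0.849) and -0.76 at 2.5 μM for 24 h (adjusted p = 0.00761, limma). Both falls at 6 h stayed past the threshold under every alternative run, and the fall at 2.5 μM for 24 h was not past it without the filter on low values (adjusted p = 0.0686).
From 6 to 24 h BCL2A1 rose by 1.09 on the log2 scale at 0.5 μM (adjusted p = 3.73e-05) and by 0.45 at 2.5 μM (adjusted p = 0.00186). The doses differed by -1.01 at 24 h (2.5 minus 0.5 μM, 95% interval -1.19 to -0.82, adjusted p = 0.000847), and this difference was past the threshold under every alternative run. At 6 h the difference between doses was -0.36 (95% interval -0.51 to -0.21) and was not past the threshold (adjusted p = 0.0589). In HCT116 cells BCL2A1 was between 0 and 0.0850 RPKM in the 15 libraries and was not tested.

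BCL2 was low in both lines. In HCT116 cells its libraries had 1.46, 1.52 and 1.40 RPKM untreated, 1.12, 0.831 and 1.18 RPKM at 2 μM for 6 h and 1.24, 1.15 and 0.824 RPKM at 10 μM for 6 h, all of the last 6 below the untreated ones. The log2 fold changes at 6 h were -0.35 (95% interval -0.68 to -0.02, adjusted p = 0.0769) and -0.33 (95% interval -0.69 to 0.03, adjusted p = 0.148), and at 24 h 0.07 and 0.03 (adjusted p = 0.689 and 0.878, limma). With equal library totals the changes at 6 h were -0.59 (adjusted p = 0.0087) and -0.675 (adjusted p = 0.028). In Ramos cells BCL2 stayed between 0.0478 and 0.170 RPKM and was not tested.

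Of the effectors, BAK1 fell in Ramos cells at 6 h. It had 20.0, 18.9 and 20.1 RPKM untreated, 15.2, 14.5 and 14.5 RPKM at 0.5 μM for 6 h and 15.8, 14.2 and 14.4 RPKM at 2.5 μM for 6 h, with no overlap. The log2 fold changes were -0.41 (adjusted p = 0.00179) and -0.40 (adjusted p = 0.00209), and each stayed past the threshold under every alternative run. At 24 h BAK1 was back between 18.0 and 21.1 RPKM, with log2 fold changes of 0.07 and -0.05 (adjusted p = 0.874 and 0.704). The rise from 6 to 24 h was 0.48 at 0.5 μM (adjusted p = 0.000386) and 0.35 at 2.5 μM (adjusted p = 0.00345, limma).
In HCT116 cells BAK1 rose at 2 μM for 6 h. Untreated libraries had 9.01, 8.16 and 8.37 RPKM and libraries at 2 μM for 6 h had 12.5, 11.2 and 11.9 RPKM, a log2 fold change of 0.46 (adjusted p = 0.0017). At 10 μM for 6 h and at 2 and 10 μM for 24 h the log2 fold changes were 0.31 (adjusted p = 0.079), 0.23 (adjusted p = 0.185) and 0.23 (adjusted p = 0.0313). Without replicate 3 of the cells at 10 μM for 6 h the first of these was past the threshold (0.398, adjusted p = 0.004419). With equal library totals the changes at 6 h were 0.13 (adjusted p = 0.386) and -0.16 (adjusted p = 0.572). The rise at 10 μM for 24 h was past the threshold under 5 of 14 alternatives. It was lost with median-ratio scaling (0.20, adjusted p = 0.0554), equal library totals (0.05, adjusted p = 0.752), no filter on low values, the replicate block and the 5 groups fitted jointly, and without replicate 2 or 3 of the untreated cells or replicate 1 or 2 of the treated cells (adjusted p from 0.0595 to 0.0963).

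BAX, whose promoter window holds the 4 E boxes shown above, was past the threshold in 2 of 8 comparisons with untreated cells. In HCT116 cells it had 28.2, 28.3 and 28.5 RPKM untreated and 32.7, 35.9 and 32.2 RPKM at 2 μM for 6 h, without overlap. The log2 fold change was 0.24 (adjusted p = 0.014), but with equal library totals it was -0.09 (adjusted p = 0.472), and it was lost without replicate 1 of the untreated cells (adjusted p = 0.0539). At the other 3 conditions of HCT116 cells BAX was at -0.02, 0.16 and 0.08 (adjusted p from 0.128 to 0.868, limma), and with equal library totals the first of these, at 10 μM for 6 h, was -0.51 (adjusted p = 0.0397).
In Ramos cells BAX had 41.3, 46.9 and 43.8 RPKM untreated and 52.6, 52.5 and 46.9 RPKM at 2.5 μM for 6 h, values that overlapped. That log2 fold change of 0.20 (adjusted p = 0.0472) was not past the threshold without replicate 1 or 3 of the untreated or replicate 1 or 2 of the treated cells, nor with median-ratio scaling (adjusted p = 0.0901). At 0.5 μM for 6 h it was 0.16 (adjusted p = 0.13), and at 24 h -0.02 and 0.09. BAX was past the threshold with equal library totals at 0.5 μM for 6 h (0.26, adjusted p = 0.0449) and at 2.5 μM for 24 h (0.30, adjusted p = 0.0122).

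Of the BH3-only genes, PMAIP1, which encodes NOXA, a protein that binds MCL1, gave the largest rise of the 10 genes in HCT116 cells. It had 27.2, 29.2 and 29.8 RPKM in untreated libraries, 51.8, 54.5 and 51.9 RPKM at 2 μM for 6 h and 39.3, 37.8 and 49.5 RPKM at 10 μM for 6 h. At 24 h it had 21.8, 24.5 and 26.5 RPKM at 2 μM and 23.0, 20.7 and 20.8 RPKM at 10 μM. As with MCL1, the libraries at 6 h were above and those at 24 h below the untreated ones, and none overlapped. The log2 fold changes were 0.87 (adjusted p = 2.48e-05) and 0.54 (adjusted p = 0.0167) at 6 h and -0.24 (adjusted p = 0.0392) and -0.41 (adjusted p = 0.00112) at 24 h, with the lower dose first (limma). From 6 to 24 h PMAIP1 fell by 1.11 at 2 μM (adjusted p = 6.83e-05) and by 0.95 at 10 μM (adjusted p = 0.00693).
The rise at 2 μM for 6 h, which was 0.53 with equal library totals, and the fall at 10 μM for 24 h stayed past the threshold under every alternative run. The rise at 10 μM for 6 h did not, since it was lost without any 1 of the 3 untreated libraries (adjusted p from 0.0632 to 0.0806) and was 0.05 with equal library totals (adjusted p = 0.821). Without replicate 3 of that group it was 0.42 (adjusted p = 0.00122). The fall at 2 μM for 24 h was lost without any of 5 of the 6 libraries (adjusted p from 0.0527 to 0.127), replicate 3 of the treated cells being the exception. It was also lost with the 5 groups fitted jointly. The fall between times at 10 μM was lost without replicate 2 or 3 at 24 h.
In Ramos cells PMAIP1 had between 24.4 and 32.5 RPKM in the 15 libraries. Its log2 fold changes were -0.07, -0.07, 0.21 and -0.04 at 0.5 and 2.5 μM for 6 h and 0.5 and 2.5 μM for 24 h, and none of these was past the threshold (adjusted p from 0.399 to 0.784). It was higher at 24 than at 6 h with 0.5 μM, by 0.28 (adjusted p = 0.00671), and at 24 h it was lower with 2.5 than with 0.5 μM, by 0.25 (adjusted p = 0.0452). The latter difference was lost without any of 5 of the 6 libraries.

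BCL2L11, which encodes BIM, an activator of BAX and BAK1 that binds the pro-survival members, fell in Ramos cells at 6 h. In Ramos cells it had 26.2, 21.7 and 24.9 RPKM untreated, 14.5, 14.2 and 14.5 RPKM at 0.5 μM for 6 h and 14.6, 14.6 and 13.2 RPKM at 2.5 μM for 6 h. At 24 h it had 28.7, 25.3 and 25.7 RPKM with 0.5 μM and 21.3, 21.0 and 22.2 RPKM with 2.5 μM. The libraries at 6 h were below the untreated ones without overlap and those at 24 h overlapped them. The log2 fold changes were -0.73 (adjusted p = 0.000335) and -0.76 (adjusted p = 0.000292) at 6 h and 0.13 (adjusted p = 0.865) and -0.17 (adjusted p = 0.221) at 24 h. From 6 to 24 h BCL2L11 rose by 0.86 at 0.5 μM (adjusted p = 3.68e-05) and by 0.59 at 2.5 μM (adjusted p = 0.000193). These falls at 6 h and the later rises stayed past the threshold under every alternative run (limma). At 24 h the level with 2.5 μM was below that with 0.5 μM by 0.30 (adjusted p = 0.0279), a difference that was lost without replicate 1 at 0.5 μM or any replicate at 2.5 μM, and with equal library totals.
In HCT116 cells BCL2L11 had 5.90, 4.62 and 5.33 RPKM untreated and 6.96, 6.62 and 7.38 RPKM at 2 μM for 6 h, without overlap. The log2 fold change of 0.38 (adjusted p = 0.0159) was 0.06 with equal library totals (adjusted p = 0.716) and was lost without replicate 2 of the untreated cells (adjusted p = 0.0671). At 10 μM for 6 h the values were 7.17, 5.86 and 7.43 RPKM, which overlapped the untreated ones (log2 fold change 0.34, adjusted p = 0.102, and -0.12 with equal library totals, adjusted p = 0.649). At 24 h it was at -0.08 and -0.16. From 6 to 24 h it fell by 0.46 at 2 μM (adjusted p = 0.00479, and 0.0657 with equal library totals), and at 10 μM the difference was -0.50 (adjusted p = 0.0604), past the threshold without replicate 3 at 6 h (-0.44, adjusted p = 0.03567). MIR4435-2HG lies across BCL2L11 on the other strand, as other transcripts do for BCL2L1, BAK1, BMF and BCL2, and the strand setting of the counting is not given in the sources used here.

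BID, which caspase-8 cleaves to link death receptors to the mitochondrion, rose in Ramos cells at 0.5 μM for 6 h. It had 16.3, 19.5 and 18.6 RPKM untreated and 22.4, 22.8 and 23.5 RPKM at that condition, without overlap, a log2 fold change of 0.33 (adjusted p = 0.0123) that was lost without replicate 3 of the treated cells (adjusted p = 0.0525). At 2.5 μM it was at 0.28 (adjusted p = 0.0512) at 6 h and 0.30 (adjusted p = 0.0586) at 24 h, each without overlap with the untreated libraries. The change at 6 h was past the threshold without replicate 2 of the untreated cells (0.329, adjusted p = 0.04013) or replicate 1 of the treated cells (0.359, adjusted p = 0.0273). At 0.5 μM for 24 h it was at -0.05 (adjusted p = 0.958). With 0.5 μM it fell by 0.38 from 6 to 24 h (adjusted p = 0.00898), a call that was lost without the filter on low values. In HCT116 cells BID stayed between 23.0 and 29.1 RPKM and its 4 log2 fold changes, from -0.13 to 0.03, were not past the threshold (adjusted p from 0.0667 to 0.773). With equal library totals it was at -0.30 at 2 μM for 6 h (adjusted p = 0.0285) and at -0.29 at 2 μM for 24 h (adjusted p = 0.0169), and in Ramos cells it was past the threshold at 2.5 μM for 6 h (0.41, adjusted p = 0.00948) and 24 h (0.50, adjusted p = 0.00478).

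BMF, a BH3-only gene whose protein is known to bind the pro-survival members, was low in HCT116 cells. It had 0.761, 0.589 and 0.788 RPKM untreated, 0.204, 0.214 and 0.431 RPKM at 2 μM for 6 h and 0.146, 0.155 and 0.172 RPKM at 10 μM for 6 h, all of the last 6 below the untreated libraries. These 2 comparisons were under the filter of 0.5 RPKM. Without the filter the log2 fold changes were -0.64 (adjusted p = 0.0357) and -0.88 (adjusted p = 0.00934), on a scale that understates changes at this level. Both passed the filter with equal library totals, at -0.80 (adjusted p = 0.00335) and -1.10 (adjusted p = 0.00288). At 24 h BMF was at 0.701, 0.878 and 0.744 RPKM with 2 μM and at 0.497, 0.712 and 0.505 RPKM with 10 μM, with log2 fold changes of 0.07 and -0.18 (adjusted p = 0.75 and 0.438). It rose by 0.71 from 6 to 24 h at 2 μM (adjusted p = 0.0165, limma), under every alternative run that tested it. In Ramos cells it stayed between 2.44 and 3.90 RPKM, and none of the 4 log2 fold changes was past the threshold (adjusted p from 0.152 to 0.913). The rise from 6 to 24 h with 0.5 μM was 0.40 (adjusted p = 0.0262), and it was lost without any replicate at 6 h or without replicate 3 at 24 h.

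Counted by comparison, 4 of 9 genes tested differed between 24 and 6 h at 2 μM in HCT116 cells (1 higher and 3 lower at 24 h, beside 40.8% of all genes tested, 30.9% higher and 9.85% lower). With median-ratio scaling 8 of the 9 differed (1 higher and 7 lower), beside 38% of all genes tested. The share of all genes called that were higher then went from 75.8% to 41.8%. With equal library totals the count was 4 (2 higher and 2 lower), beside 51.1% of all genes tested. Of the genes called, 92.4% were then higher. At 10 μM 2 of 8 differed (2 lower, beside 7.86%, 5.80% higher and 2.06% lower). The count there was 3 with median-ratio scaling and 0 with equal library totals, beside 6.49% and 10.1% of all genes tested. The share of called genes that were higher went from 73.7% to 42.8% and 92.1%. In Ramos cells 7 of 9 differed at 0.5 μM (6 higher and 1 lower, beside 25.4%, 11.9% higher and 13.5% lower) and 4 of 9 at 2.5 μM (3 higher and 1 lower, beside 23.0%, 12.7% higher and 10.4% lower). Between doses the count was 0 of 8 in HCT116 cells at 6 h, 0 of 9 in HCT116 cells at 24 h and 0 of 9 in Ramos cells at 6 h (limma, with 2, 2 and 4 genes at an unadjusted p under 0.05). Of all genes tested, 0%, 0.180% (0.140% higher and 0.0399% lower) and 0.429% (0.185% higher and 0.244% lower) were called in these. It was 3 of 9 in Ramos cells at 24 h (BCL2A1, BCL2L11 and PMAIP1, each lower at 2.5 μM, beside 4.25%, 2.39% higher and 1.86% lower). Under equal library totals 1 was lower (BCL2A1) and 2 were higher (BAX and BID), beside 18.8% of all genes tested that were called. The share of called genes that were higher went from 56.3% to 92.6%. The count was 1, BCL2A1 being the gene that was always called, without replicate 1 at 0.5 μM or any replicate at 2.5 μM. Of all genes, 1.98% were called without the former and 1.71%, 1.04% and 1.06% without replicates 1, 2 and 3 at 2.5 μM.

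By the interaction of line and treatment in limma, with 2 μM in HCT116 and 2.5 μM in Ramos cells, changes were compared between the lines for the genes that passed the filter in both. At 6 h the response differed for 5 of 7 such members (4 higher and 1 lower in HCT116 cells, beside 42.9% of 11374 genes, 12.2% higher and 30.7% lower). At 24 h it differed for 3 of 8 (3 lower, beside 18.0% of 11499 genes, 6.90% higher and 11.1% lower). Of all genes called at 6 h, 5.42% with equal library totals were higher in HCT116 cells, against 30.0% as deposited, and at 24 h 5.38% against 41.7%. At 6 h the change in HCT116 minus that in Ramos cells was 1.13 for BCL2L11 (adjusted p = 7.06e-05), 0.94 for PMAIP1 (adjusted p = 1.26e-05), 0.86 for BAK1 (adjusted p = 3.87e-05) and -0.53 for BCL2L1 (adjusted p = 0.000617). Each of these 4 was past the threshold under every alternative run. MCL1, at 0.34 (adjusted p = 0.00675), was at -0.14 with equal library totals (adjusted p = 0.384). At 24 h BCL2L1 was at -0.42 (adjusted p = 0.0107), BID at -0.43 (adjusted p = 0.00855) and MCL1 at -0.28 (adjusted p = 0.0161). BCL2A1, BMF at 6 h and BCL2 were under the filter in 1 of the lines and are not counted. The dose differed between the lines as well and cannot be told apart from the line, and whether Ramos cells received the delivery reagent is not given.

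The ratio of a pair of genes within a library does not depend on how the library was scaled, and 7 pairs of opposed or redundant members were compared over 53 comparisons, 48 of them with untreated cells. With 3 libraries against 3 the two-sided exact permutation test cannot give a p below 0.1, and after Benjamini-Hochberg adjustment over the 53 comparisons the lowest value was 0.196, so no ratio could pass a threshold of 0.05. The values are given as a description. Of the 48 comparisons with untreated cells, 22 had no overlap, and no other gene pairs were computed as a background. BCL2L1 to MCL1 was in HCT116 libraries 0.592 and 0.564 of its untreated ratio at 6 h with 2 and 10 μM and 0.822 and 0.766 of it at 24 h, each without overlap (exact permutation p = 0.1). The ratio of BAX to BCL2L1, an effector over a pro-survival member, was 1.54, 1.44, 1.57 and 1.64 times the untreated one at 2 μM for 6 h, 10 μM for 6 h, 2 μM for 24 h and 10 μM for 24 h, also without overlap. PMAIP1 to MCL1, a BH3-only transcript over that of the protein NOXA binds, was 1.41 times the untreated ratio at 2 μM for 6 h without overlap and 1.20 times at 10 μM for 6 h, where the libraries overlapped (exact permutation p = 0.3). The latter, 0.27 on the log2 scale, was 0.09 without replicate 3 of the treated cells. At 24 h in HCT116 cells the ratio was 0.972 of the untreated one at 2 μM, with overlap, and 0.887 of it at 10 μM, without. In Ramos cells it was 0.924 and 0.922 of the untreated ratio at 2.5 μM for 6 and 24 h, without overlap, and 0.996 and 1.08 times it at 0.5 μM, with overlap. BCL2L11 to MCL1 in HCT116 cells was between 1.02 and 1.08 times the untreated ratio and overlapped the untreated libraries at each condition. BCL2L11 to BCL2 in HCT116 cells at 6 h was 1.88 and 1.79 times the untreated ratio. The value at 10 μM, 0.84 on the log2 scale, was 0.60 without replicate 3 of the treated cells, and BCL2 had a mean of 1.07 RPKM there.
In Ramos cells at 6 h BCL2L11 to MCL1 was 0.626 and 0.566 of the untreated ratio at 0.5 and 2.5 μM and BAX to BAK1 was 1.50 and 1.53 times it, each without overlap (exact permutation p = 0.1). BCL2L1 to MCL1, between 0.909 and 1.09 times the untreated ratio in the 4 Ramos groups, overlapped the untreated libraries in each. BAX to BCL2L1, between 0.957 and 1.17 times the untreated ratio in these groups, also overlapped in each. Ratios to BCL2 were not computed in Ramos cells, where it was under 0.5 RPKM.

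**Figure D3:**
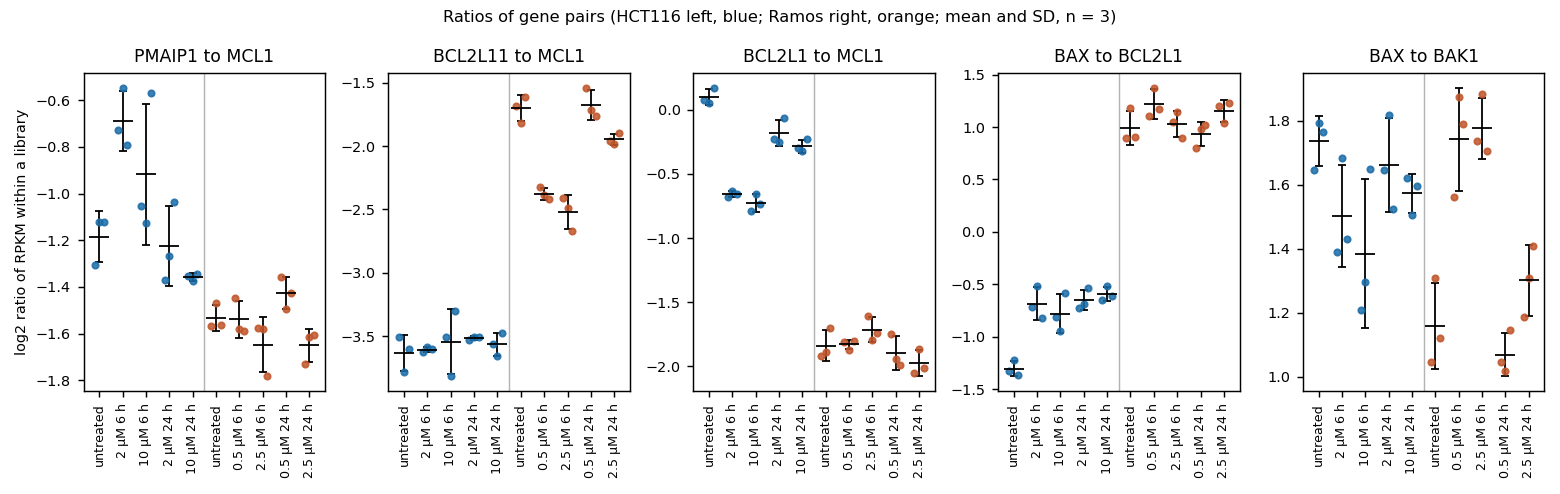
Log2 ratio of RPKM within each library (vertical axis, a scale of its own for each pair) for 5 pairs, with HCT116 groups in blue on the left and Ramos groups in orange on the right of each panel. Each point is a library and each bar the mean and SD of 3 replicates. BCL2L1 to MCL1 drops below the untreated libraries in the 4 treated HCT116 groups, and BCL2L11 to MCL1 drops and BAX to BAK1 rises at 6 h in Ramos cells.

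Summed over the 4 pro-survival genes, the RPKM was 136.7 ± 4.74 (SD, n = 3) in untreated HCT116 cells, 140.2 ± 8.10 and 128.3 ± 9.003 at 6 h with 2 and 10 μM, and 108.0 ± 1.97 and 101.8 ± 5.65 at 24 h. Within that sum the share of MCL1 went from 47.7% ± 1.05 (SD, n = 3) in untreated HCT116 cells to 60.7% ± 0.378 and 61.8% ± 1.09 at 6 h and to 52.4% ± 1.77 and 54.1% ± 0.864 at 24 h. The share of BCL2L1 went from 51.2% ± 1.12 to 38.5% ± 0.439 and 37.4% ± 1.13 at 6 h and to 46.15% ± 1.72 and 44.4% ± 0.826 at 24 h. MCL1 thus passed BCL2L1 as the larger part, and for both genes the treated libraries at each of the 4 conditions did not overlap the untreated ones. These genes make up nearly all of the sum in HCT116 cells, so their shares mirror each other and restate the BCL2L1 to MCL1 ratio. At 24 h the share of MCL1 was higher although its own RPKM was below the untreated level.
In Ramos cells the sum was 146.5 ± 10.79 RPKM (SD, n = 3) untreated, 121.4 ± 1.76 and 125.2 ± 2.95 RPKM at 6 h and 161.6 ± 6.71 and 130.5 ± 1.95 RPKM at 24 h with 0.5 and 2.5 μM. BCL2A1 made up 30.95% ± 1.99 of it in untreated cells, 20.6% ± 1.69 and 15.4% ± 1.04 at 6 h, and 33.35% ± 2.34 and 20.4% ± 1.51 at 24 h. The share of MCL1 was 53.8% ± 0.975 untreated and 61.9% ± 1.35, 64.7% ± 1.26, 52.5% ± 2.86 and 63.4% ± 0.818 in the treated groups in the same order. These shares were not tested further.

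**Figure D4:**
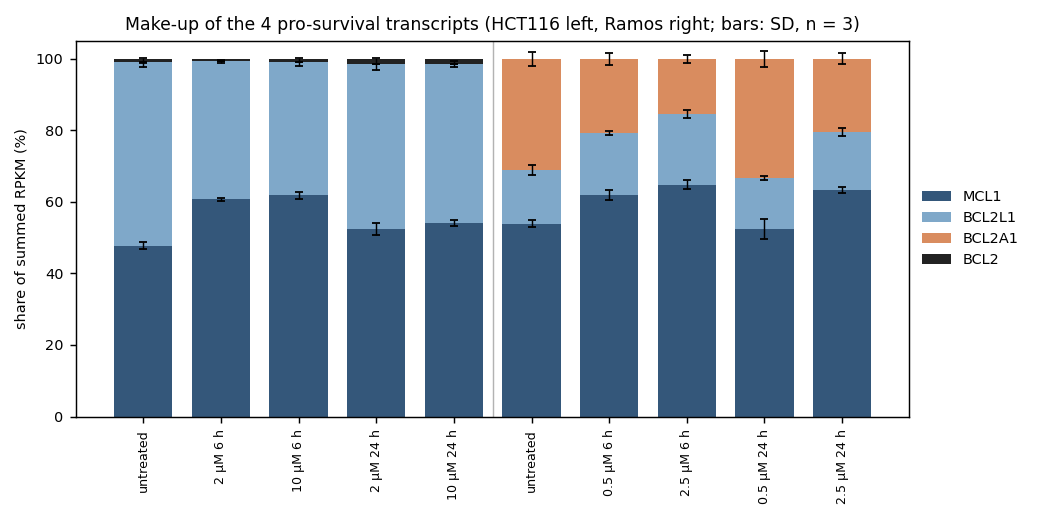
Make-up of the summed RPKM of the 4 pro-survival genes (vertical axis, percent) in the 10 groups, with HCT116 groups on the left and Ramos groups on the right. Each segment is the mean share of 3 libraries and each bar its SD. BCL2L1 is the larger part of the sum only in untreated HCT116 cells, and BCL2A1, absent as a visible segment in HCT116 cells, ranges from 15.4% to 33.35% in Ramos cells.

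Other genes of the pathway, in 5 lists by role, were counted in the same comparisons. Of 12 other BCL2 family genes, 9 were tested in each comparison with untreated cells. In HCT116 cells 6 were past the threshold at 2 μM for 6 h (2 higher and 4 lower) and 4 at 10 μM for 6 h (4 lower). At 24 h the counts were 6 at 2 μM (3 higher and 3 lower) and 7 at 10 μM (3 higher and 4 lower), beside the shares of all genes given above. In Ramos cells 4 were past it at each dose at 6 h (2 higher and 2 lower), 0 at 0.5 μM for 24 h (limma, with 1 at an unadjusted p under 0.05) and 1 at 2.5 μM for 24 h (1 lower). The shares of all genes called in Ramos cells were 23.6% and 27.9% at 6 h and 0.0146% and 4.61% at 24 h. BBC3, which encodes the BH3-only protein PUMA, fell in HCT116 cells from 8.92 ± 1.08 RPKM (SD, n = 3) to 4.94 ± 1.15 at 2 μM for 6 h (log2 fold change -0.81, adjusted p = 0.00224). It fell to 3.76 ± 0.408 at 10 μM for 6 h (log2 fold change -1.14, adjusted p = 0.00172) and by 0.56 at 10 μM for 24 h (adjusted p = 0.00328, limma). BNIP3L, a BH3-like gene of mitophagy, fell in HCT116 cells by 1.06 and 1.38 at 6 h. BNIP3, its close relative, rose in HCT116 cells at 24 h by 0.99 and 0.75 and in Ramos cells at 6 h by 0.52 and 0.66. HRK, a BH3-only gene, fell in Ramos cells at 6 h by 0.80 and 0.71, from 1.48 ± 0.313 RPKM, and each call was lost without replicate 1 of the untreated cells or replicate 2 or 3 of the treated cells.

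Downstream of the mitochondrion, the list of 18 apoptosome, caspase and release genes had 6 past the threshold in HCT116 cells at 2 μM for 6 h (1 higher and 5 lower) and 9 at 10 μM for 6 h (9 lower), beside 47.3% and 30.0% of all genes tested. At 24 h it had 4 at 2 μM (2 higher and 2 lower) and 4 at 10 μM (1 higher and 3 lower), beside 27.3% and 35.2%, so its share was below that of all genes in 3 of these 4 comparisons. With equal library totals 13 and 14 were lower at 6 h and 0 higher. Of all genes, 63.1% and 48.6% were then called, and 6.76% and 4.28% of those were higher. With median-ratio scaling 5 were lower at 10 μM for 6 h, beside 30.4% of all genes called, 47.6% of these higher. APAF1, the scaffold of the apoptosome, fell from 11.3 ± 0.546 RPKM (SD, n = 3) to 4.86 ± 0.185 at 2 μM for 6 h (log2 fold change -1.14, adjusted p = 2.45e-05). It fell to 5.17 ± 0.600 at 10 μM for 6 h (log2 fold change -1.06, adjusted p = 0.00137, limma). CYCS, which encodes cytochrome c, rose by 0.54 at 2 μM for 6 h (adjusted p = 0.000662), and with equal library totals it was at 0.20 and not past the threshold. In Ramos cells 5 of the list were past the threshold at each dose at 6 h (beside 23.6% and 27.9%), and ENDOG, a mitochondrial nuclease, rose by 0.73 and 0.73 at 6 h. At 24 h the list had 0 at 0.5 μM (limma, with 0 at an unadjusted p under 0.05) and 1 at 2.5 μM, ENDOG, which rose by 0.60, beside 0.0146% and 4.61%. That rise was lost without replicate 2 of the untreated cells or any treated replicate. With equal library totals 12 of the list were higher at this condition, beside 39.4% of all genes called, 97.4% of these higher. CASP2 fell in HCT116 cells by 0.54 at 10 μM for 6 h, a call lost without replicate 1 or 3 of the untreated cells, and by 0.58 at 10 μM for 24 h.

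Of 7 inhibitor of apoptosis genes, 5 were past the threshold in HCT116 cells at 2 μM for 6 h (2 higher and 3 lower, beside 47.3% of all genes, 15.5% higher and 31.8% lower) and 2 at 10 μM for 6 h (2 higher, beside 30.0%, 8.84% higher and 21.2% lower). At 24 h 1 was at 2 μM (1 higher) and 0 at 10 μM (limma, with 3 at an unadjusted p under 0.05), beside 27.3% and 35.2% of all genes. BIRC3 rose in HCT116 cells at 6 h by 0.78 and 0.66, the latter lost with equal library totals and without replicate 1 or 2 of the untreated cells. NAIP (log2 fold change -0.71, adjusted p = 0.00733) and BIRC6 (-0.57, adjusted p = 0.00138, limma) fell at 2 μM for 6 h. Both falls stayed past the threshold under every alternative run. CFLAR, which encodes the caspase-8 inhibitor c-FLIP, rose in HCT116 cells by 0.67 at 10 μM for 6 h (adjusted p = 0.0185), under 7 of 14 alternatives. It was not past the threshold with equal library totals, without the filter, or without any untreated replicate or replicate 1 or 2 of the treated cells. In Ramos cells at 6 h CFLAR fell by 0.98 (adjusted p = 0.000425) and 0.94 (adjusted p = 0.000431), from 28.2 ± 4.76 RPKM to 13.9 ± 0.767 and 14.3 ± 0.759 RPKM (SD, n = 3). Of 8 death receptor genes, 7 were tested in HCT116 cells. Of these 5 were past the threshold at 2 μM for 6 h (3 higher and 2 lower) and 2 at 10 μM for 6 h (1 higher and 1 lower), beside 47.3% and 30.0% of all genes. Of the same list, 5 and 4 rose at 24 h in HCT116 cells with 2 and 10 μM and 0 fell, beside 16.6% and 19.5% of all genes higher and 10.8% and 15.7% lower. Under equal library totals 0 of the list rose at 2 μM for 24 h, and 1 rose and 1 fell at 10 μM. Of all genes, 26% and 33% were called under these totals, and 23% and 20.4% of those were higher. At 2 μM 1 rose without the filter (7.65% of all genes called), 0 with the 5 groups fitted jointly (7.51%) and 3 with median-ratio scaling (27.5%). In Ramos cells at 6 h the inhibitor of apoptosis list had 3 lower at each dose, and the death receptor list had 3 past the threshold at 0.5 μM (2 higher and 1 lower) and 4 at 2.5 μM (4 higher), beside 23.6% (13.8% higher and 9.73% lower) and 27.9% (17.3% higher and 10.7% lower) of all genes. Among 10 regulators of BCL2 family proteins, 5, 5, 4 and 7 were past it in HCT116 cells at 2 μM for 6 h, 10 μM for 6 h, 2 μM for 24 h and 10 μM for 24 h, and 3, 5, 4 and 6 of these were lower, beside 47.3%, 30.0%, 27.3% and 35.2% of all genes, with 31.8%, 21.2%, 10.8% and 15.7% lower. In Ramos cells 3 of the regulators (1 higher and 2 lower) were past it at 0.5 μM for 6 h and 4 (1 higher and 3 lower) at 2.5 μM for 6 h. The shares of all genes were 23.6% and 27.9%. In Ramos cells at 24 h these 3 lists had 0 past the threshold except 1 inhibitor of apoptosis gene, lower at 2.5 μM (limma, with between 0 and 3 a list at an unadjusted p under 0.05). Of all genes, 0.0146% and 4.61% were called at 0.5 and 2.5 μM for 24 h. HUWE1 and USP9X, which act on MCL1 protein stability, fell in HCT116 cells at 2 μM for 6 h by 0.53 and 0.74.

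For the 3 genes tested in all 8 comparisons with untreated cells and called in at least 4, the genes with the most similar 8 log2 fold changes were sought among 11136 genes by the root mean square difference. For BCL2L1 they were FBXL17 (0.0728), TGIF2 (0.0816) and SDCBP (0.0853), where the root mean square of the changes of BCL2L1 itself was 0.370. For BAK1 (0.305) they were GEMIN6 (0.0665), RHOF (0.0818) and PTTG1 (0.0849). For PMAIP1 (0.406) they were IER2 (0.120), TIPARP (0.157) and EIF1 (0.165), of which IER2 and TIPARP are known as immediate early genes. The measure is a description over 8 comparisons that share 2 groups of untreated libraries.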

How the data were processed

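RNA-Seq used a strand-specific total RNA kit with rRNA depletion. The authors deposited RPKM for 57992 genes in 30 libraries, whose fractional values do not give back read counts. The submitters' processing notes name RSEM without its role, and the aligner, build and annotation are not given in the sources used here. The labels give 2 μM for the lower dose in HCT116 cells, where the methods give 2.5 μM, and a time tag reads 4 h for libraries titled 24 h, for which 24 h was used. Symbols and positions were joined from GENCODE release 29, which holds 57388 of the genes. Libraries without counts allow no count model, so log2(RPKM + 0.5) was fitted with limma 3.58.1 in R 4.3.3 (lmFit, eBayes with trend) for genes with a mean of at least 0.5 RPKM over the libraries compared, with Benjamini-Hochberg adjustment over all genes tested and a threshold of 0.05, in 19 comparisons without the replicate number. Intervals are 95% and unadjusted. Ratios were compared by exact permutation in SciPy 1.17.1. Genes named are the 10 members, genes of 5 pathway lists that were called with a log2 fold change of at least 0.5 in absolute value (at most 4 a list and comparison), and nearest patterns. Members and lists were chosen with earlier results of these data known. The procedure was tested on simulated data. No protein sequence was used, and the MCL1 promoter was not analysed here.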

Additional observations from a re-analysis of the deposited data

Results flagged for a closer look

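The change with Omomyc differed between the lines by the interaction term in limma (2 μM in HCT116 minus 2.5 μM in Ramos cells, adjusted over all genes) for 8 values of genes that passed the filter in both lines. At 6 h BCL2L11 (1.13, adjusted p = 7.06e-05), BAK1 (0.86, adjusted p = 3.87e-05), PMAIP1 (0.94, adjusted p = 1.261e-05) and MCL1 (0.34, adjusted p = 0.006752) were higher in HCT116 relative to Ramos cells, and BCL2L1 (-0.53, adjusted p = 0.0006171) was lower. For BCL2L11 and BAK1 the changes were past the threshold in each line, upward in HCT116 and downward in Ramos cells, but the upward ones were not past it with equal library totals. At 24 h BCL2L1 (-0.42, adjusted p = 0.01074), MCL1 (-0.28, adjusted p = 0.01609) and BID (-0.43, adjusted p = 0.00855) were lower in HCT116 relative to Ramos cells. The term was also past the threshold for genes under the filter in HCT116 cells, BCL2A1 (1.21 at 6 h and 0.75 at 24 h, which restate its fall in Ramos cells) and BMF (-0.69 at 6 h, where its HCT116 values were under 0.8 RPKM), and these are not counted as differences between the lines. The dose differed between the lines as well and cannot be told apart from the line, and whether Ramos cells received the delivery reagent is not given.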

How the results depend on the processing

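Each value of a member was recomputed with another pseudocount (0.1 or 1), with no filter or a filter of 2 RPKM, with median-ratio scaling or equal library totals, with the replicate block, with the 5 groups of a line fitted jointly (not for the untreated lines or the interactions), and without each library in turn. Of 2445 member values under them, 2299 kept their direction and side of the threshold, or were not called either way (80 of these turned sign), 85 lost the call, 56 gained one and 5 reversed. The 5 reversals came with equal library totals, for BAX (-0.093) and BID (-0.300) at 2 μM for 6 h in HCT116 cells, MCL1 between the untreated lines (0.305), and MCL1 (-0.138) and BAX (-0.431) in the interaction at 6 h. The cause was not tested. The number of members called moved by over 1.5 times in 28 of 275 alternatives. These counts follow, with the share of all genes tested that were called in parentheses. At 10 μM for 6 h in HCT116 cells it was 2 (30.0%), and 4 with median-ratio scaling (30.4%), 4 with equal totals (48.6%), 5 with all 5 groups (44.3%) and 0 to 4 with libraries left out (12.2% to 51.2%). At 2 μM for 24 h it was 3 (27.3%), and 1 with all 5 groups (7.51%) and 1 to 3 with libraries left out (14.5% to 24.7%). At 2.5 μM for 24 h in Ramos cells it was 1 (4.61%), and 0 without the filter (0.331%), 2 with the filter of 2 RPKM (7.4%), 4 with equal totals (39.4%) and 2 with all 5 groups (9.14%). Between times it was 4 at 2 μM in HCT116 cells (40.8%) and 8 with median-ratio scaling (38%). At 10 μM it was 2 (7.86%), and 1 without the filter (1.01%), 0 with equal totals (10.1%), 1 with the block (1.72%) and 0 to 3 with libraries left out (1.08% to 23.5%). Between doses in Ramos cells it was 0 at 6 h (0.429%) and 1 with the filter of 2 RPKM (0.854%), and 3 at 24 h (4.25%), 1 without the filter (0.251%) and 1 to 4 with libraries left out (1.04% to 4.73%). Same-numbered libraries had correlated deviations of -0.219 to 0.148 and in 1 of 8 comparisons each library correlated best with its own number, so the numbers were not taken as pairs. With the replicate block, 6 of 170 member values lost their call and 3 gained one. Ratios were recomputed only without each library, which cannot move a mean of 3 by more than its SD and so says nothing of their stability. After the data were seen, the 43 values of other pathway genes under the naming rule were recomputed in the same ways, and 547 of 597 kept their call, 50 lost it and 0 reversed. The 40 counts of the pathway lists moved by over 1.5 times in 123 of 560 alternatives. Nearest patterns and shares of the pro-survival sum were not recomputed. Depth, being unknown, limits what can be said of BCL2A1 and BMF in HCT116 and BCL2 in Ramos cells.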
